A study of Mus musculus with 27 samples.

Results

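The heavy chain of an antibody ends in a constant region, and the choice of that region sets the antibody's class. The 8 immunoglobulin heavy constant genes of the C57BL/6 mouse, Ighm (μ, IgM), Ighd (δ, IgD), Ighg3, Ighg1, Ighg2b and Ighg2c (γ, the IgG subclasses), Ighe (ε, IgE) and Igha (α, IgA), were followed here in splenic B cells in the first hours after stimulation. They were taken by gene symbol from tables of 54532 genes, and all 8 were found. Naive B cells make IgM and IgD by alternative processing of a single long transcript. Before a B cell switches class, a promoter upstream of the target constant gene makes a noncoding germline transcript through that gene, and the transcribed switch DNA is then deaminated, cut and joined. IL-4 is known for inducing the germline transcripts of γ1 and ε, and lipopolysaccharide (LPS) for those of γ3 and γ2b, usually read after days rather than hours.

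In the first experiment, wild-type C57BL/6 B cells were cultured for 3 h without stimulus (NS), with LPS, with LPS and disulfiram (DSF), with IL-4 and an anti-CD40 antibody (IL-4+anti-CD40), or with these and DSF, in 4 libraries per group. The second experiment had 1 library for each of these 5 conditions and 1 for each stimulus plus ibrutinib, which inhibits the B cell receptor kinase BTK. The study's figure legends describe the inhibitor-treated cells as pre-treated, and the 3 h as the time after stimulation. DSF and ibrutinib were used at 1 μM, and the stimulated groups without either are titled as vehicle cultures. The NS titles name no vehicle, but the study names its unstimulated group NS_DMSO, and the NS library of the second experiment has the same label. Cells came from spleen by negative selection, and p-values measure the spread between these libraries. The study describes the replicates as biologically independent samples, while the labels do not tie them to mice.

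Total counts ran from 17804851 to 23632992 per library in the first experiment and from 16049295 to 24619776 in the second. All 8 B cell markers were detected in every group, but their summed level moved with the groups: 2504 to 3643 FPKM in NS (fragments scaled to gene length and library size, as the authors calculated them), 1803 to 1835 in LPS, 1285 to 1362 in LPS+DSF, 2271 to 2900 in IL-4+anti-CD40 and 1635 to 1695 in IL-4+anti-CD40+DSF. In IL-4+anti-CD40, Fcer2a and Cd79b had means of 913 and 679 of a summed 2577 FPKM, and with DSF 355 and 438 of 1665. Of the 8 markers, 6 were called lower with DSF there and 1 higher (31.6% and 30.1% of all genes). The part of the summed level in the results was not tested. The NS libraries of the first experiment fell into 2 pairs, replicates 1 and 2 against 3 and 4: between pairs 1162 to 1180 of 15575 genes differed at least 2-fold, and within pairs 11 and 24. Replicates 1 and 2 had more Sdc1, the plasma cell surface protein CD138 (14.9 and 14.8 FPKM against 4.85 and 5.18), more Prdm1, the plasma cell regulator Blimp-1 (4.02 and 4.77 against 1.11 and 1.15), and a higher sum of 6 neutrophil markers (58.1 and 55.7 against 19.5 and 24.9). The sum of 8 plasma cell markers was not higher in them (411 and 400 FPKM against 414 and 445). Among these, Jchain (89.9 and 92.4 against 102 and 124) and Mzb1 (190 and 174 against 230 and 241) went the other way. Replicates 3 and 4 were the higher pair for the sums of 8 myeloid markers (457 and 471 FPKM against 393 and 384) and 6 erythroid markers (15.6 and 17.7 against 3.73 and 2.97). Of the myeloid sum, Lyz2 alone was at 391 and 406 FPKM against 277 and 268, and the other myeloid markers together were lower in replicates 3 and 4. The heavy constant genes were therefore compared with NS also without either pair, an alternative chosen after seeing the data, and the values are given where they differed most. Each such fit keeps 2 NS libraries that are much alike. Its p-values therefore do not measure the spread of NS, and only its fold changes are given. Ratios, sums and genes of other lists use all 4 NS libraries. In such bulk RNA, fewer cells of a type and less RNA per cell cannot be told apart.

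The 8 genes lie in a row on chromosome 12 (GRCm38), on the minus strand, and transcription runs from Ighm towards Igha. Ighm spans chr12:113418558-113422730 and Ighd chr12:113406604-113416324. Ighg3 follows at chr12:113356224-113361232, Ighg1 at chr12:113325240-113330523, Ighg2b at chr12:113302965-113307933 and Ighg2c at chr12:113285325-113288932. Ighe (chr12:113269260-113273248) and Igha (chr12:113254830-113260236) close the row. Ighg1 starts 92.2 kb and Ighe 149 kb downstream of the start of Ighm. Every gene model begins at the first constant exon (CH1) and holds no germline (I) exon and no variable segment, so a germline transcript and a switched, translated transcript of the same gene give the same counts.

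The CH1 exon is the first part of each gene that a read can be counted on, and its first 60 bases are shown here from the GENCODE M21 transcripts. Capitals mark the 22 positions at which the 4 γ genes are not all alike, and the other 4 genes are left in lower case.
Ighm: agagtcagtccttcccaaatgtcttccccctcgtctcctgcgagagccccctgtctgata
Ighd: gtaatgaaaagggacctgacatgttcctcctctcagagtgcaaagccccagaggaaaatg
Ighg3: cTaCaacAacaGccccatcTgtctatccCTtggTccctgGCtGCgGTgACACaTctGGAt
Ighg1: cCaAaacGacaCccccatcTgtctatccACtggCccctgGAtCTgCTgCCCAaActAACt
Ighg2b: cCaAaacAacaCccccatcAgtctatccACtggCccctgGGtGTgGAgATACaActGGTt
Ighg2c: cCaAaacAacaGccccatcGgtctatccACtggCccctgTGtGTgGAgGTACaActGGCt
Ighe: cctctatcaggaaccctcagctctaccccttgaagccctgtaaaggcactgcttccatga
Igha: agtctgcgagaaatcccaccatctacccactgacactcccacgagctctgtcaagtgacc

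The hinge exon, next after CH1, is where the γ genes differ most plainly, in length as well as in letters. It has 48 bases in Ighg3, 39 in Ighg1, 66 in Ighg2b and 63 in Ighg2c.
Ighg3 hinge: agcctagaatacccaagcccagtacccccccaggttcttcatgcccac
Ighg1 hinge: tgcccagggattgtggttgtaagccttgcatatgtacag
Ighg2b hinge: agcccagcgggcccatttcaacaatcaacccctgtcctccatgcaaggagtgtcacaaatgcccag
Ighg2c hinge: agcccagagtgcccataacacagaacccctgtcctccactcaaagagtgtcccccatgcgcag
Over the 291 bases of CH1, Ighg1 matched Ighg2b at 88.3% of positions and Ighg3 at 79.0%. The longest identical run between any pair of γ transcripts was 88 bases (Ighg3 and Ighg2b), while between Ighg1 and Ighg2c it was 37 bases. How reads matching several genes were counted is not stated, so values of the γ genes carry an uncertainty that those of the other genes, whose longest run shared with any member was 15 bases, do not.

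**Figure D1:**
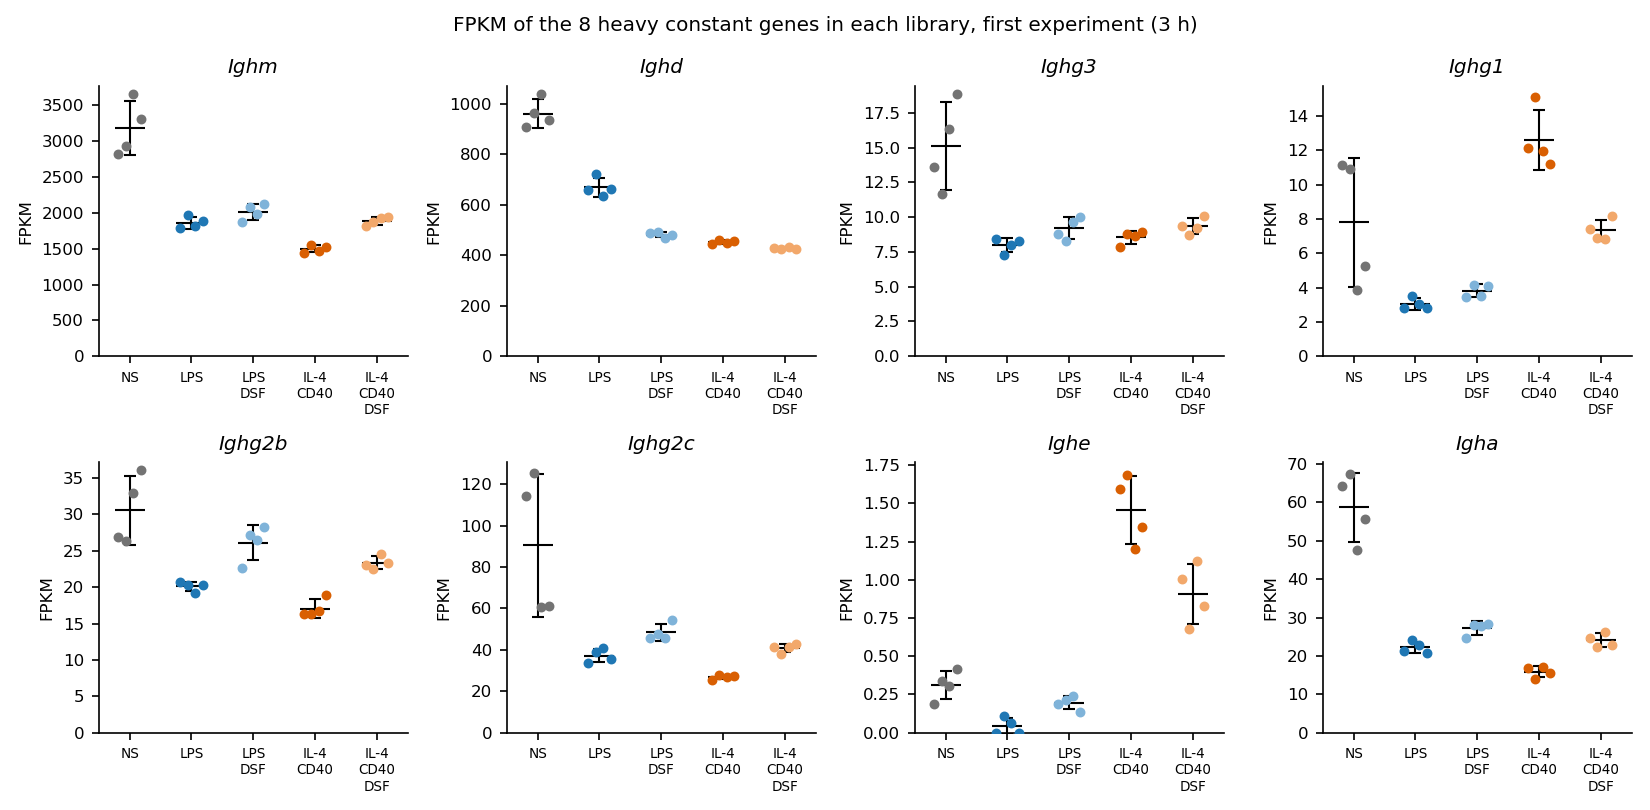
FPKM of each heavy constant gene (vertical axes from 0, a scale for each gene) in the 20 libraries of the first experiment; points are libraries, bars the mean ± SD of 4. Ighg1 and Ighe are the genes whose highest group is IL-4+anti-CD40, and the NS libraries of Ighg1 and Ighg2c split into 2 pairs.

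Per length, Ighm was the most abundant of the 8 in all 5 groups, from 1498 ± 47.6 FPKM (IL-4+anti-CD40) to 3184 ± 381 (NS; mean ± SD, n = 4). Ighd came next, from 427 ± 3.86 (IL-4+anti-CD40+DSF) to 962 ± 57.0 (NS). Ighg2c was next in every group (26.9 to 90.4 FPKM), although in NS its libraries overlapped those of Igha, the gene below it. Igha and Ighg2b took the next places and overlapped in all groups with a stimulus and DSF and in IL-4+anti-CD40, but not in NS or LPS. Ighe was last everywhere, at 0.0434 FPKM in LPS and 1.46 in IL-4+anti-CD40. Ighg1 and Ighg3 exchanged places: Ighg1 was below Ighg3 in 4 groups and above it in IL-4+anti-CD40 (12.6 ± 1.74 against 8.54 ± 0.466 FPKM), with no overlap of the libraries in any group. By counts, Ighm and Ighd made up most of the total over the 8 genes, with means of 70.6% to 77.5% for Ighm and 17.6% to 25.5% for Ighd, and the 8 together took 0.402% to 1.05% of a library's counts.

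LPS against unstimulated B cells asks how the locus responds to a stimulus that needs no T cell. All 7 members that could be tested were lower in LPS (edgeR, Benjamini-Hochberg adjusted p at most 0.00624), where 33.3% of 14477 genes were called lower, 29.6% higher and 62.9% either way. The median of the 7 was -0.91 on the log2 scale, beside -0.05 over all genes tested. None of these genes, which include the γ3 and γ2b targets named above, was higher after 3 h of LPS.

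Ighm measured 2828, 2931, 3661 and 3317 FPKM in NS replicates 1 to 4 and 1786, 1976, 1818 and 1883 in LPS, and the groups did not overlap. Its log2 fold change was -0.76 ± 0.10 (SE, adjusted p = 0.000273). Ighd fell less, by 0.51 ± 0.08 (adjusted p = 0.000437), from 908, 963, 1040.5 and 937 FPKM to 658, 724, 636 and 661. Among these 7, the strongest falls were those of Igha (-1.38 ± 0.11, adjusted p = 1.22e-05) and Ighg1 (-1.33 ± 0.32, adjusted p = 0.00624). Ighg1 showed 11.1, 10.9, 3.87 and 5.27 FPKM in NS and 2.83, 3.51, 3.04 and 2.79 in LPS, so every LPS library was below every NS library, and the NS pairs lay more than 2-fold apart. Without NS replicates 1 and 2 the log2 fold change of Ighg1 was -0.55, and without 3 and 4 it was -1.82. Ighg2c moved likewise, from -1.26 to -0.68 and -1.66. Ighg3 (-0.91), Ighg2b (-0.59) and Ighg2c stayed lower with either pair left out.

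Ighe was too sparse for this fit. Its counts were 8, 14, 12 and 15 in NS and 0, 4, 2 and 0 in LPS, with no overlap. Summed over libraries these are 49 and 6 counts, a ratio of 0.129 per total count (95% exact conditional interval 0.0451 to 0.301, counting error only). In a fit of all 27189 genes with any count, its log2 fold change was -2.68 ± 0.73 (adjusted p = 0.0131).

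IL-4+anti-CD40 against unstimulated cells, the model of help by T cells, divided the members. Of the 7 members other than Ighe, 6 were lower and Ighg1 did not pass the test, where 62.5% of 14433 genes passed, 30.4% higher and 32.1% lower. Ighe was called higher, but in every comparison except that of DSF within IL-4+anti-CD40 it had enough counts for the test only through an IL-4+anti-CD40 group, where it is high, so its calls there support nothing by themselves. Ighe went from 0.189, 0.340, 0.305 and 0.415 FPKM to 1.60, 1.68, 1.20 and 1.35 (8 to 15 counts per library in NS, 41 to 56 with the stimulus). The groups lay well apart, and its log2 fold change was 2.24 ± 0.28 (4.71-fold), or 2.03 and 2.45 with either NS pair left out. By counts alone, 193 against 49, the ratio per total count was 4.32 (95% exact conditional interval 3.14 to 6.04).

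Ighg1 reached 12.2, 15.1, 11.9 and 11.2 FPKM with IL-4+anti-CD40. Each of these was above all 4 NS libraries, but the lowest of them was close to replicates 1 and 2 of NS (11.1 and 10.9). Its log2 fold change of 0.72 ± 0.31 did not pass the test (adjusted p = 0.0710). DESeq2 (0.73, adjusted p = 0.0411) and a fit of all 20 libraries (0.66, adjusted p = 0.0131) called it, and over 9 alternatives that kept every library the adjusted p ran from 0.0131 to 0.165. It also passed without NS replicate 1 (0.93, adjusted p = 0.0297) or replicate 2 (0.91, adjusted p = 0.0348). Its log2 fold change was 1.48 without both and 0.20 without replicates 3 and 4. The size of the γ1 response relative to NS thus differed with the NS libraries used, and the part of the Sdc1, Prdm1 and neutrophil transcripts in that difference was not tested.

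The other 6 fell with IL-4+anti-CD40. Igha fell by 1.87 ± 0.12 and Ighg2c by 1.72 ± 0.24 on the log2 scale, while Ighm and Ighd fell by the same 1.07. Ighg2b (-0.82) and Ighg3 (-0.81) changed least. All 6 stayed lower also without either pair of NS libraries, and Ighg2c then ranged from -1.15 to -2.15. The sum of myeloid marker transcripts (8 genes) was lower too, from 384 to 471 FPKM in NS to 116 to 132 with IL-4+anti-CD40 and 215 to 233 with LPS. Most of it in NS was Lyz2, at a mean of 335 FPKM in NS, 74.0 with IL-4+anti-CD40 and 56.5 with LPS. With LPS the other myeloid markers together were higher than in NS. Of the 8, 4 were called lower and 2 higher with LPS (33.3% and 29.6% of all genes), and 7 lower with IL-4+anti-CD40 (32.1%). Sdc1 was at 4.85 to 14.9 FPKM in NS and between 0.795 and 1.77 in all 16 stimulated libraries. The part of the myeloid or plasma cell transcripts in the falls of Igha and the γ genes was not tested.

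A direct comparison of the 2 stimuli involves no NS library. In LPS relative to IL-4+anti-CD40, 6 of the 7 members other than Ighe were called (background 39.7% of 14078 genes, 22.3% higher and 17.3% lower), 5 higher and Ighg1 lower. Ighg1 was 3.98-fold lower with LPS (log2 -1.99 ± 0.11, adjusted p = 4.12e-08) and kept between -2.07 and -1.91 when any library was left out. Ighe had 6 counts over the LPS libraries and 193 over the IL-4+anti-CD40 libraries, a ratio of 0.0298 per total count (95% exact conditional interval 0.0108 to 0.0661). Ighd (0.62), Igha (0.54), Ighg2c (0.52), Ighm (0.37) and Ighg2b (0.29) were higher in LPS, the last without passing when libraries were scaled by total counts (0.15, adjusted p = 0.0678). Ighg3 differed by -0.05 ± 0.08 (adjusted p = 0.66), and its libraries overlapped, at 7.28 to 8.45 FPKM in LPS and 7.86 to 8.91 in IL-4+anti-CD40.

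**Figure D2:**
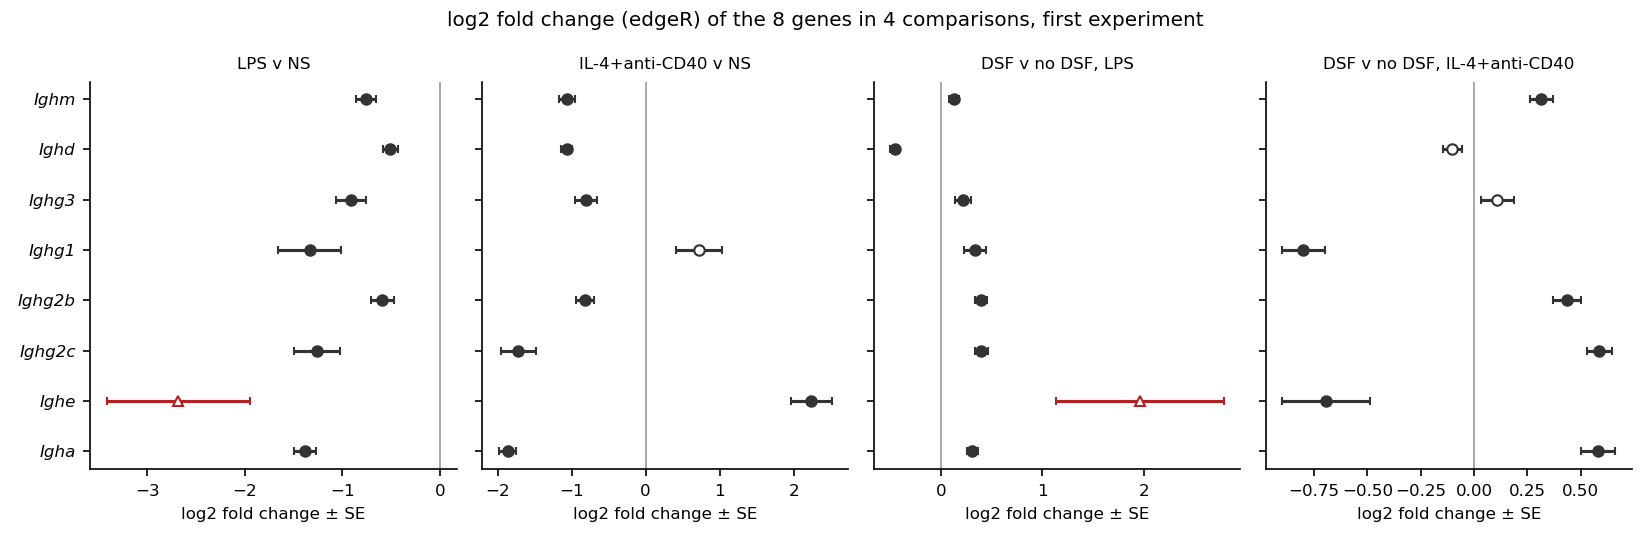
Log2 fold change ± SE from edgeR (horizontal axes, scales differ between panels) of the 8 genes in 4 comparisons of the first experiment. Filled circles have an adjusted p under 0.05 and open circles do not. Red triangles are Ighe in the fit of all genes with any count, where it was too sparse for the filtered fit. Ighg1 and Ighe stand right of 0 with IL-4+anti-CD40, and left of 0 in the comparison of DSF with that stimulus alone.

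In IL-4+anti-CD40-stimulated cells, DSF lowered Ighg1 and Ighe and raised 4 other members. The test was passed by 6 of 8, where 61.8% of 14275 genes did (30.1% higher, 31.6% lower). Ighg1 went from 12.2, 15.1, 11.9 and 11.2 FPKM to 7.43, 6.88, 6.82 and 8.18, with no overlap (1.74-fold lower, log2 -0.80 ± 0.10, adjusted p = 3.53e-05). Ighe went from 1.60, 1.68, 1.20 and 1.35 to 1.00, 0.681, 1.12 and 0.825 FPKM, again without overlap (1.62-fold lower, log2 -0.69 ± 0.21, adjusted p = 0.0118). In a single fit of all 20 libraries Ighe no longer passed (-0.63, adjusted p = 0.0841). Ighg1 with DSF was still above every LPS library, and Ighe with DSF above every NS library. As a share of the counts of the 8 genes, which needs no scaling between libraries, Ighg1 had a mean of 0.844% with IL-4+anti-CD40 and 0.412% with DSF, and Ighe 0.0597% and 0.0313%.

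The risers were Ighg2c (0.59 ± 0.06), Igha (0.58 ± 0.08), Ighg2b (0.43 ± 0.07) and Ighm (0.32 ± 0.05), each without overlap between the groups. Ighg2c, for one, measured 25.7, 27.7, 26.9 and 27.4 FPKM without DSF and 41.6, 38.2, 41.3 and 43.0 with it. Ighg3 changed by 0.11 ± 0.08 (adjusted p = 0.235) and its sign turned to -0.04 under total-count scaling. Ighd had lower values in all 4 DSF libraries (424 to 432 against 444 to 459.6 FPKM), yet its -0.10 ± 0.04 did not pass (adjusted p = 0.0674). Under total-count scaling it did (-0.25, adjusted p = 0.000396).

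In LPS-stimulated cells, DSF changed the members mostly upwards. Among those tested the rises were at most 0.40 on the log2 scale, and the fall, of Ighd, was 0.46. All 7 tested members passed, where 71.1% of 14154 genes did (35.1% higher, 36.0% lower). There were 6 higher, and Ighd was lower, but with total-count scaling, which moved the median gene from 0.00 to -0.21, 3 passed and Ighm turned to -0.08 (adjusted p = 0.0899). Ighg2b (0.40 ± 0.06) and Ighg2c (0.40 ± 0.06) were called under both scalings, though Ighg2c lost its call in a single fit of all 20 libraries (adjusted p = 0.0657). Ighg2b was at 20.7, 20.3, 19.2 and 20.3 FPKM with LPS and 22.7, 27.1, 26.4 and 28.3 with LPS+DSF, with no overlap. Ighd fell by 0.46 ± 0.04 (adjusted p = 8.57e-10), from 658, 724, 636 and 661 FPKM to 488, 492, 469 and 479.97, also without overlap. Igha rose by 0.31 ± 0.05 (adjusted p = 1.74e-05) without overlap, and had a log2 fold change of 0.10 (adjusted p = 0.0942) under total-count scaling.

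Ighg1 showed 2.83, 3.51, 3.04 and 2.79 FPKM with LPS and 3.43, 4.17, 3.53 and 4.09 with LPS+DSF, overlapping groups with a log2 fold change of 0.34 ± 0.11 (adjusted p = 0.00867, and 0.274 in the fit of all 20 libraries). Ighm (0.13 ± 0.05, adjusted p = 0.0158) and Ighg3 (0.22 ± 0.08, adjusted p = 0.0153) overlapped too. Neither held on leaving out single libraries: Ighm lost its call without LPS replicate 1 (0.08), 3 (0.09) or 4 (0.11) or LPS+DSF replicate 2 (0.10) or 4 (0.09), and Ighg3 without LPS replicate 2 (0.15) or 3 (0.19) or LPS+DSF replicate 3 (0.19) or 4 (0.16). Ighe had 6 counts over the LPS libraries and 21 over the LPS+DSF libraries, a ratio of 3.67 per total count (95% exact conditional interval 1.43 to 11.1). Its log2 fold change in the fit of genes with any count was 1.96 ± 0.83 (adjusted p = 0.0452).

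The DSF effect itself differed between the 2 stimuli for 2 of the 7 members other than Ighe (edgeR interaction, IL-4+anti-CD40 minus LPS), where 14.9% of 15130 genes differed, 6.96% upwards and 7.92% downwards. Ighg1 differed by -1.13 ± 0.15 (adjusted p = 3.03e-05) and Ighd in the other direction, by 0.36 ± 0.06 (adjusted p = 0.000401). Ighe had only 6 counts over the LPS libraries, of which 2 were at 0, too few to compare its DSF effects. In the fit of all 20 libraries the interaction of Ighg1 was -1.06 with an adjusted p of 0.0661. With DSF in both arms, Ighg1 remained 1.89-fold lower in LPS+DSF than in IL-4+anti-CD40+DSF (adjusted p = 5.79e-07), compared with the 3.98-fold without it. Ighe had 21 counts against 121, a ratio of 0.197 per total count (95% exact conditional interval 0.117 to 0.314). Of the other 7 members 5 passed there, 4 of them higher (background 45.1% of 14352 genes, 21.8% higher and 23.3% lower). Those higher were Ighd, Ighg2b, Ighg2c and Igha, by 0.19 to 0.26 on the log2 scale, and total-count scaling ended all 4 calls.

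Against unstimulated cells, the DSF groups can be set beside the stimuli alone, with the same NS libraries in both. With LPS+DSF, 6 of 7 tested members were called and all 6 were lower (background 71.6% called, 34.3% higher and 37.3% lower), from -0.66 for Ighm to -1.10 for Igha. Ighg2b (-0.22, adjusted p = 0.139) passed under total-count scaling (-0.63) and without NS replicate 1 (-0.32) or replicate 2 (-0.32), and was -0.41 without both. Ighg1 (-1.03, adjusted p = 0.0178) lost its call without LPS+DSF replicate 1 (-0.96, adjusted p = 0.0520), and was -0.27 without NS replicates 1 and 2. Ighg2c (-0.89) ranged from -0.34 to -1.33 without either NS pair. With IL-4+anti-CD40+DSF, 6 of the 7 members other than Ighe were called, all lower (background 68.7%, 33.4% higher and 35.3% lower), with Ighg2c at -1.13 and at -0.57 to -1.56 without either pair. Ighe had 121 counts against 49 in NS, a ratio of 2.41 per total count (95% exact conditional interval 1.71 to 3.43). Ighg1 was at 7.33 ± 0.631 FPKM with IL-4+anti-CD40+DSF against 7.79 ± 3.76 in NS (adjusted p = 0.841). The log2 fold change of Ighg1 there was 0.68 without NS replicates 1 and 2 and -0.60 without 3 and 4.

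IgM and IgD come from a single transcript unit, and the ratio of Ighd to Ighm within a library needs no scaling. In NS the ratio of FPKM was 0.321, 0.329, 0.284 and 0.282. It was 0.368, 0.367, 0.350 and 0.351 with LPS and 0.261, 0.235, 0.237 and 0.226 with LPS+DSF. With IL-4+anti-CD40 it was 0.307, 0.296, 0.306 and 0.300, and with this stimulus and DSF 0.236, 0.226, 0.224 and 0.218. Both DSF groups lay below all 12 libraries without DSF. The ratio changed by -0.58 on the log2 scale with DSF in LPS and by -0.42 in IL-4+anti-CD40 (exact two-sided permutation test, p = 0.0286 each, the smallest p that 4 against 4 can give, 0.0357 adjusted over 5 comparisons). With LPS it was 0.24 above NS (same exact p), and on leaving out any LPS library the difference stayed at 0.23 to 0.25, where 3 libraries against 4 did not pass (adjusted p = 0.0714). IL-4+anti-CD40 and NS differed by -0.01 on the log2 scale (exact permutation p = 0.914), although the NS libraries spread over 0.282 to 0.329.

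**Figure D3:**
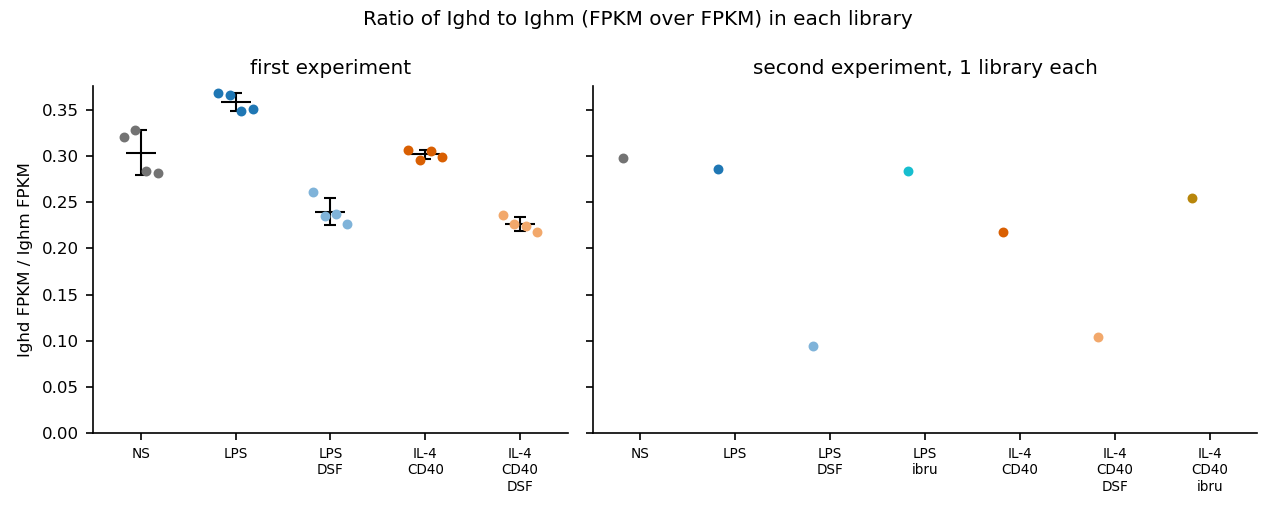
Ratio of Ighd FPKM to Ighm FPKM (vertical axis from 0) in every library of the first experiment (left, points with mean ± SD of 4) and the second (right, 1 library each). In both experiments the DSF libraries are the lowest, at 0.218 to 0.261 and at 0.0942 and 0.104.

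The variable segments give a view of the transcripts that carry a rearranged heavy chain. Summed over 185 Ighv genes, TMM-scaled CPM ran from 1209 to 1461 in NS, 735 to 752 in LPS and 526 to 566 in IL-4+anti-CD40, without overlap. The sum was 1.74-fold lower with LPS and 2.36-fold lower with IL-4+anti-CD40 than in NS (exact permutation p = 0.0286, adjusted 0.0357, both). DSF left it at 677 to 801 in LPS, around the LPS values (exact permutation p = 0.83), and at 568 to 697 in IL-4+anti-CD40, 1.18-fold above the stimulus alone (exact permutation p = 0.0286). The latter shrank to 0.03 on the log2 scale with total counts (adjusted p = 0.714). It lost its call on leaving out any IL-4+anti-CD40 library, at 0.22 to 0.26 on the log2 scale (adjusted p = 0.0714). In LPS, total-count scaling turned the DSF difference to -0.17 (adjusted p = 0.0357), and without LPS+DSF replicate 1 it was 0.077 (adjusted p = 0.0286).

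The second experiment, with 1 library per condition, has no replicate check, and its values are ratios of TMM-scaled counts with a 95% exact conditional interval that covers counting error only. Ighg1 was counted 54 times in NS, 54 in LPS and 312 in IL-4+anti-CD40, a ratio to NS of 6.78 for the last (5.06 to 9.23). Its NS level, 0.957 FPKM, was below all 4 NS libraries of the first experiment. Ighe had 4 counts in NS, 13 in LPS and 24 in IL-4+anti-CD40. Ighe met the limit of a mean of 10 counts only through the IL-4+anti-CD40 libraries, so it is left out of the members past 2-fold. Of the other members, Ighg1 rose and Ighd fell (ratio 0.425) at least 2-fold in that stimulus, where 24.4% of 14275 genes did (10.7% higher, 13.7% lower). With LPS none of these members did, where 18.5% of genes did (8.62% higher, 9.88% lower). Ighe had a ratio of 3.84 (1.19 to 16.2) with LPS. The fall of Ighe with LPS in the first experiment was thus not seen here. Nor were those of Igha (1.04, 0.872 to 1.25), Ighg1 (1.18, 0.796 to 1.76) and Ighg2c (0.996, 0.872 to 1.14). Ighm (0.733), Ighd (0.703), Ighg3 (0.563) and Ighg2b (0.885) were lower again. With IL-4+anti-CD40, Igha (0.865, 0.716 to 1.04) and Ighg2c (0.830, 0.721 to 0.953) were nearer to no change than in the first experiment.

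DSF in IL-4+anti-CD40 left 39 counts of Ighg1 from 312, a ratio of 0.162 (0.113 to 0.227), against the 1.74-fold fall of the first experiment. Ighe, in contrast, had 24 counts in either library, a ratio of 1.30 (0.707 to 2.39), so that its fall in the first experiment was not seen here. Ighg2c (557 from 350 counts, ratio 2.07) and Igha (347 from 199, ratio 2.27) were higher. There were 3 members past 2-fold, where 42.2% of genes were (21.9% higher, 20.3% lower), and 1 under total-count scaling. DSF in LPS raised Ighg2c from 417 to 940 counts (ratio 2.42, 2.16 to 2.73) and lowered Ighd from 20191 to 7133 (ratio 0.380, 0.370 to 0.390), the 2 members past 2-fold against 39.8% of genes (20.3% higher, 19.5% lower; 1 under total-count scaling). Ighg2b (1.80) and Igha (1.92) rose less, and Ighg1 (33 from 54 counts, 0.657) had an interval that included no change (0.413 to 1.03).

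**Figure D4:**
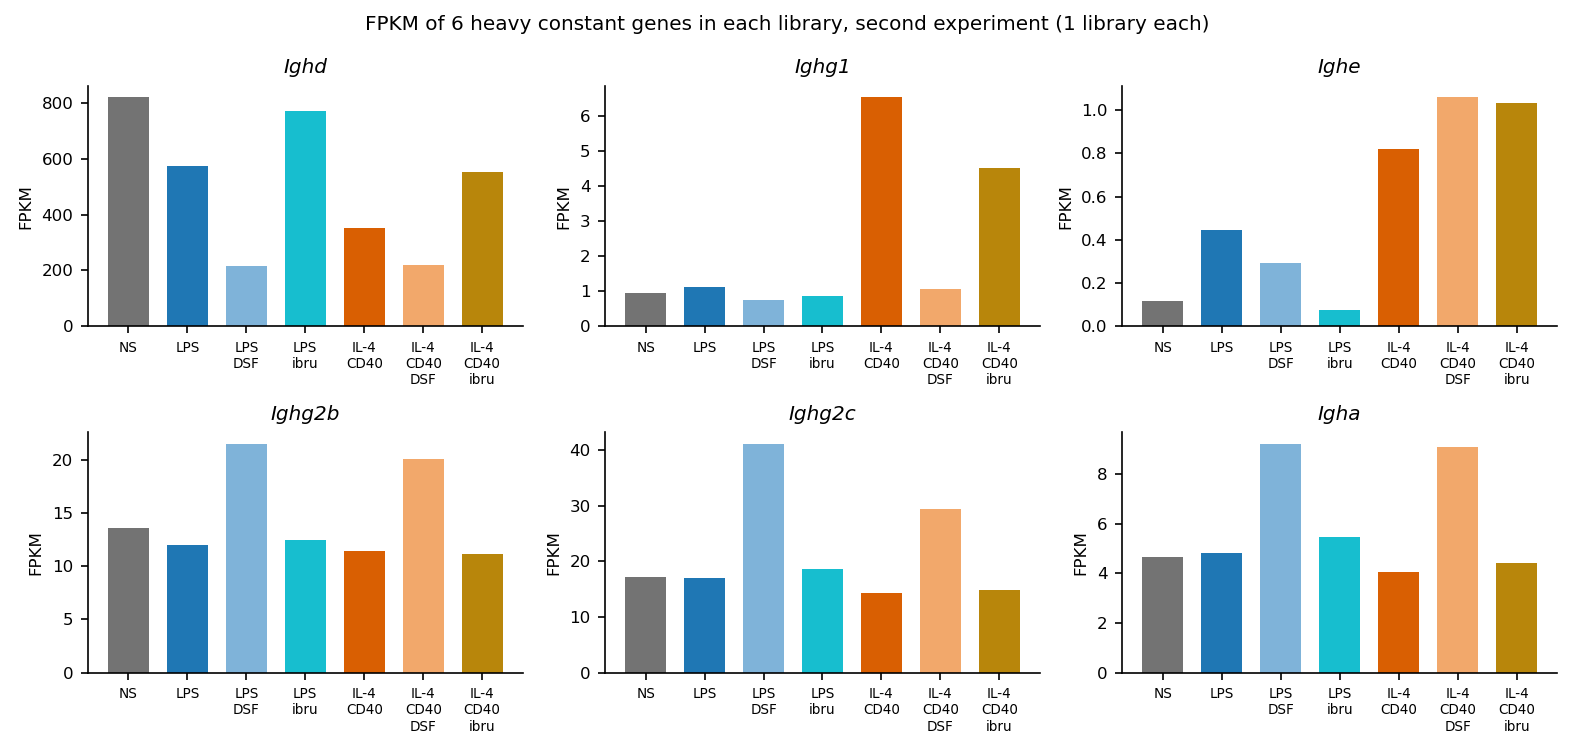
FPKM of 6 heavy constant genes (vertical axes from 0, a scale for each gene) in the 7 libraries of the second experiment; each bar is 1 library, so there is no error bar. Ighg1 is high in IL-4+anti-CD40 with and without ibrutinib (4.52 and 6.53 FPKM) and low with DSF (1.05), while Ighg2b, Ighg2c and Igha are highest in the DSF libraries.

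Ibrutinib gave other values. In IL-4+anti-CD40, Ighg1 was counted 307 times with ibrutinib and 312 without, a ratio of 0.696 (0.592 to 0.817), and no member moved 2-fold (background 3.92%, with 2.23% higher and 1.69% lower). Ighd was higher with ibrutinib under either stimulus (ratios 1.36 in LPS and 1.58 under IL-4+anti-CD40), as was Ighm (1.37 and 1.35), whereas DSF lowered Ighd (0.380 and 0.631). In LPS, no member other than Ighe moved 2-fold (background 5.28%, with 2.81% higher and 2.47% lower). Ighe had 3 counts against 13 there (ratio 0.176, 0.0322 to 0.642). The Ighd to Ighm ratio was 0.298 in NS, 0.286 with LPS, 0.284 with LPS and ibrutinib and 0.0942 with LPS+DSF. It was 0.218 with IL-4+anti-CD40, 0.255 with this stimulus and ibrutinib and 0.104 with this stimulus and DSF.

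Of the genes that act around the switch regions, 19 of the deamination step (cofactors and the uracil and mismatch repair enzymes among them) were tested in every comparison. Relative to NS, LPS raised 6 and lowered 6, while IL-4+anti-CD40 raised 10 and lowered 6. Over all genes tested, LPS raised 29.6% and lowered 33.3%, so that the LPS counts are near the background, and for IL-4+anti-CD40 the shares were 30.4% higher and 32.1% lower. Ung, the uracil glycosylase that acts on deaminated switch DNA, rose with LPS (2.42-fold) and IL-4+anti-CD40 (3.17-fold), as did Apex1, the endonuclease of the next step (2.94-fold and 3.80-fold). Prkaca, the catalytic subunit of protein kinase A, fell 2.54-fold and 2.05-fold, and Rpa1, of the single-strand DNA binding complex, 2.24-fold with LPS. With DSF, 15 of the 19 were lower and 3 higher in LPS (median -0.43, all genes 0.00), and for IL-4+anti-CD40 14 fell and 2 rose (median -0.50, all genes -0.02). The background with DSF was 36.0% lower and 35.1% higher in LPS, and 31.6% and 30.1% in IL-4+anti-CD40. Ung fell 2.55-fold and 2.54-fold while Msh6, which recognises mismatches, rose 1.55-fold and 1.44-fold, and Ptbp2, a splicing factor, rose by 0.58 and 0.27 on the log2 scale.

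**Figure D5:**
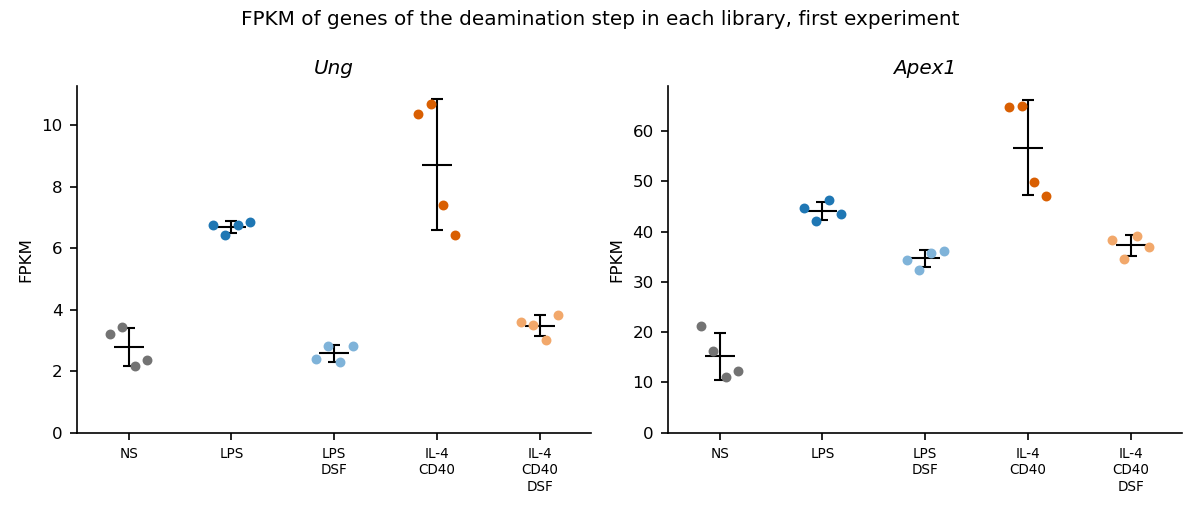
FPKM of Ung and Apex1 (vertical axes from 0) in the 20 libraries of the first experiment; points are libraries, bars the mean ± SD of 4. Apex1 is lowest in NS, and Ung is low in NS and in both DSF groups.

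Of 21 genes of the end-joining step, LPS raised 6 and lowered 7, with 10 higher and 8 lower after IL-4+anti-CD40, where the LPS counts are near the 29.6% and 33.3% of all genes and those of the other stimulus stand beside 30.4% and 32.1%. Dclre1c (Artemis nuclease, 2.01-fold) and Mad2l2 (a shieldin partner, 1.97-fold) rose with LPS, and the shieldin subunits Shld1 (2.41-fold) and Shld2 (2.26-fold) fell. With IL-4+anti-CD40, Nbn (of the MRN break sensor) rose 2.91-fold and Mad2l2 1.91-fold, and Prkdc (DNA-PKcs, 2.88-fold) and Parp1 (2.63-fold) fell. DSF lowered 16 of the 21 in LPS and 14 in IL-4+anti-CD40 (medians -0.78 and -0.68; 36.0% and 31.6% of all genes) and raised 1 and 2. Mdc1, a chromatin adaptor at breaks, fell 2.42-fold and 2.48-fold. Xrcc6 (Ku70) fell 2.33-fold in LPS and Atm, the break kinase, 2.18-fold in IL-4+anti-CD40. Nbn rose with DSF, 2.19-fold and 1.26-fold, and Nhej1 (XLF) 1.74-fold in IL-4+anti-CD40.

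The transcription factors known from germline promoters and the 3′ enhancers (25 tested of 26) had 13 higher and 5 lower with LPS (median 0.47, background 29.6% and 33.3%). With IL-4+anti-CD40 10 were higher and 8 lower (median 0.08), beside a background of 30.4% and 32.1%. Batf, an AP-1 factor needed for switching, rose 13.7-fold and 4.08-fold, and Nfil3, known for the ε germline promoter, 7.92-fold and 46.4-fold. Id3, an inhibitor of E proteins, fell 5.14-fold and 8.35-fold and Ets1 3.74-fold and 5.13-fold. With DSF, 10 were higher and 11 lower in LPS (35.1% and 36.0% of all genes) and 10 and 9 in IL-4+anti-CD40 (30.1% and 31.6%). Nfil3 fell 3.51-fold with DSF in IL-4+anti-CD40, along with Runx3 (2.29-fold), while Tbx21, known for γ2a/γ2c transcription, rose 2.63-fold and Id3 1.80-fold. In LPS, Smad3 rose 2.49-fold and Cebpb 1.71-fold, and the E protein gene Tcf3 (2.66-fold) and Ikzf1 (2.47-fold) fell.

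Among 14 receptors and kinases of the switch signals, LPS raised 2 and lowered 4, beside 29.6% and 33.3% of all genes. After IL-4+anti-CD40 5 were higher and 6 lower, beside 30.4% and 32.1%. Cd40 rose 5.42-fold and 3.44-fold, Il2rg 1.74-fold with LPS and Tgfbr1 2.26-fold with IL-4+anti-CD40, and the LPS receptor genes Tlr4 (5.48-fold and 8.51-fold) and Cd180 (3.27-fold and 4.23-fold) fell. With DSF 8 were higher and 2 lower in LPS (background 35.1% and 36.0%), and 7 and 5 in IL-4+anti-CD40 (30.1% and 31.6%). Jak3, a kinase of the IL-4 receptor, fell 3.04-fold and 2.90-fold, and Il4ra, its ligand-binding chain, 1.61-fold in IL-4+anti-CD40. Tnfrsf13b (TACI) fell 1.11-fold in LPS. Ly96, the partner of Tlr4, rose 4.23-fold and 3.86-fold, Tgfbr1 1.72-fold in LPS and Tlr4 2.05-fold in IL-4+anti-CD40.

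The other antibody chains and their partners (7 genes) fell with the stimuli, 6 of them after LPS (33.3% of all genes fell) and all 7 after IL-4+anti-CD40 (32.1%). Cd79b, of the B cell receptor, fell 3.14-fold with LPS and Iglc2 (λ constant) 2.31-fold, and Iglc3 4.71-fold and Cd79a 3.54-fold with IL-4+anti-CD40. DSF lowered 6 of the 7 in LPS (36.0% of all genes fell), Iglc3 by 2.15-fold and Iglc1 by 1.56-fold, where 6 of 7 tested heavy constant genes had risen. It raised Jchain, which links IgM and IgA polymers, 1.23-fold in LPS and 1.29-fold in IL-4+anti-CD40. Under the latter stimulus Cd79a also rose (1.32-fold), and Cd79b (1.57-fold) and Iglc3 (1.19-fold) fell. The summed plasma cell markers (8 genes, Jchain among them) were higher with DSF too, at 580 to 618 FPKM against 469 to 486 in LPS and 504 to 523 against 421 to 427 in IL-4+anti-CD40. Irf4 made up much of these sums, at means of 371 of 596 FPKM in LPS+DSF, 216 of 425 in IL-4+anti-CD40 and 236 of 516 in IL-4+anti-CD40+DSF. Of 7 tested, 6 were called higher and 1 lower in LPS (35.1% and 36.0% of all genes). In IL-4+anti-CD40, 3 were called higher (30.1% of all genes) and 4 did not pass, Sdc1 (log2 0.00) and Xbp1 (-0.05) among them. Prdm1 was at 12.2 to 13.1 against 3.63 to 4.54 FPKM in LPS. None of the 8 plasma cell markers was at 0 in any group, and Sdc1 was at 0.795 to 1.07 FPKM with LPS+DSF against 1.37 to 1.77 with LPS. The part of these markers in the higher Igha, Ighg2b and Ighg2c was not tested.

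Over the 20 libraries, the members fell into 2 sets by correlation of their log2 levels, given as a description because the libraries share 5 groups. Ighm correlated with Igha (r = 0.93), Ighg2b (0.89), Ighg3 (0.87), Ighg2c (0.84) and Ighd (0.82). Ighg1 and Ighe correlated with each other (r = 0.82), and neither with Ighm (-0.23 and -0.30). Among 10956 other genes, those most like Ighg1 were Lpin1 (r = 0.92), Fads1 (0.91) and Scn4a (0.91), with 0.82, 0.28 and 0.80 over the 7 libraries of the second experiment. Ighe was most like Dusp10 (0.94), Ncoa3 (0.94) and S1pr3 (0.94), with 0.76, 0.66 and 0.77 there. Rcsd1 (0.98 and then 0.95) led for Ighm, Gpr174 (0.99 and 0.91) for Ighd and Stard10 (0.97 and 0.56) for Ighg2b. The first for Ighg2c was Sfxn3 (0.96 and 0.41), for Igha Id3 (0.98 and 0.34) and for Ighg3 Rab30 (0.97 and 0.10). Next came Ttc7 and Zcchc24 for Ighm, Cdk2ap2 and Siglecg for Ighd, Cox7a2l and Zfp945 for Ighg2b, Tcn2 and Calcoco1 for Ighg2c, Tsc22d3 and Vpreb3 for Ighg3, and Pcmtd2 and Rgs2 for Igha.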

How the data were processed

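RNA was poly-A selected and sequenced. Per the labels, Fastp trimming was followed by alignment to mm10 (HISAT2 2.0.5) and counting per gene (featureCounts 1.5.0-p3). The strand setting, the annotation release and the handling of multi-mapped reads are not given in the sources used here. The deposited counts are raw, and the deposited FPKM were made by the authors from these counts and gene lengths. Libraries were grouped by their labels. Counts were tested with edgeR 4.0.16 (R 4.3.3; quasi-likelihood, TMM, filterByExpr, only the libraries of the groups compared, no block), with Benjamini-Hochberg adjustment over all genes tested and a threshold of 0.05; DESeq2 1.42.0 and limma 3.58.1 were alternatives. On simulated data for DSF in LPS (14154 genes, 200 changed 2-fold), edgeR found 188 with 15 false calls. In the data 71.1% of the genes were called, so this simulation, with few changed genes, does not check the scaling. Ratios of the second experiment used a prior count of 2 for the 2-fold limit and the genes averaging 10 counts or more. Coordinates and sequences came from GENCODE M21 (GRCm38), which matches the files' positions. The members and gene lists were chosen with earlier results of these data known. Named from each list were the 2 largest called rises and falls per comparison of a stimulus with NS or of DSF with its stimulus; all members were always named, and for each member the 3 genes with the highest correlation of log2 TMM-scaled CPM, among those with a mean of at least 50 counts and outside the immunoglobulin loci. Some genes that this rule names are not reported here.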

Additional observations from a re-analysis of the deposited data

Results flagged for a closer look

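Ighg1, Ighe and Ighd stood out because the DSF effect differed between the 2 stimuli in the edgeR interaction test. The DSF effect with IL-4+anti-CD40 minus that with LPS was -1.13 for Ighg1 and 0.36 for Ighd on the log2 scale. Ighg1 lost its call in the fit of all 20 libraries (adjusted p = 0.0661). The fitted value of Ighe, -2.69, rests on 6 counts over 4 LPS libraries, 2 of them at 0, and Ighe had enough counts for the test only through the IL-4+anti-CD40 groups, so it supports no difference between the stimuli.

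Of 50 groups of 4 libraries examined for a library far from the others (the 8 genes, the Ighd to Ighm ratio and the Ighv sum in 5 groups), 1 was found, where chance gives about 2.5. It was Igha in LPS+DSF, with FPKM of 24.6, 28.1, 27.9 and 28.4. The gap of the lowest library to the next was 0.862 of the group's range, above Dixon's 95% critical value for 4 samples.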

How the results depend on the processing

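Depth limits Ighe most: 2 LPS libraries had no count of it. NS libraries in 2 unlike pairs limit every comparison with NS. Of 616 member values under alternatives that kept every library, 580 kept their call or lack of one, 22 lost and 13 gained a call and 1 called value changed sign. That was Ighm with DSF in LPS (-0.081) under total-count scaling. Without NS replicates 1 and 2, Ighg1 in IL-4+anti-CD40+DSF against NS changed sign to 0.68.

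Scaling by total counts put the median gene at -0.14 to -0.43 in the 8 pairwise comparisons, where TMM had it at -0.05 to 0.00, and moved the share of higher calls from 47.1% to 31.3% (LPS against NS), 48.6% to 38.3% (IL-4+anti-CD40 against NS), 56.3% to 34.0% (LPS against IL-4+anti-CD40), 49.4% to 34.2% (DSF in LPS) and 48.8% to 35.9% (DSF in IL-4+anti-CD40). For DSF with either stimulus relative to NS, the shares went from 47.9% to 29.7% (LPS) and 48.6% to 31.6% (IL-4+anti-CD40). Between the DSF groups they went from 48.3% to 28.7%, and for the interaction from 46.8% to 63.3%. With this scaling 3 members instead of 7 were called for DSF in LPS. Counting Ighe, whose calls support nothing by themselves, 2 instead of 6 were called between the DSF groups and 5 instead of 3 for the interaction. Over all genes, calls went from 10062 to 10156 of 14154 (DSF in LPS), 6477 to 7454 of 14352 (between the DSF groups) and 2252 to 2249 of 15130 (interaction). DSF in the second experiment then moved 1 member 2-fold instead of 2 (LPS) or 3 (IL-4+anti-CD40), and the Ighv sum with DSF in IL-4+anti-CD40 was 0.031, and in LPS it turned from 0.023 to -0.17. The fit of all 20 libraries called 4 members for DSF in LPS and 3 between the DSF groups, and DESeq2 called 5 for the interaction, with Ighe among them each time. The cause was not tested.

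Leaving out single libraries gave an Ighd to Ighm difference of 0.21 to 0.28 for LPS against NS, and an Ighv sum difference of 0.20 to 0.30 for DSF in IL-4+anti-CD40 and -0.0042 to 0.077 in LPS. Between the DSF groups, Ighm (0.11, adjusted p = 0.0707) passed without LPS+DSF replicate 1 (0.15), and Ighg2b (0.19, adjusted p = 0.0231) lost its call without LPS+DSF replicate 2 (0.17), 3 (0.18) or 4 (0.14) or IL-4+anti-CD40+DSF replicate 2 (0.16). In the interaction, Ighm (0.19, adjusted p = 0.0592) passed without LPS+DSF replicate 4 (0.22) or IL-4+anti-CD40 replicate 2 (0.21).

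Replicate numbers did not pair the libraries: correlations of same-numbered deviations were -0.06 to 0.25, over 0.1 in 2 of 32. With a replicate block, members called, counting Ighe where it was tested, stayed within 1 of the unblocked number in all 9 comparisons (8 for IL-4+anti-CD40 against NS, where Ighg1 passed). Exact blocked sign-flip tests of the Ighd to Ighm ratio cannot go below p = 0.125, and gave an adjusted p of 0.156 for differences of 0.24 (LPS against NS), 0.25 (LPS against IL-4+anti-CD40), -0.58 (DSF in LPS) and -0.42 (DSF in IL-4+anti-CD40).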
